A study of Callithrix jacchus with 3 samples.

Results

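XPO5, DGCR8, DICER1 and AGO4 are genes of the pathway that makes and loads microRNAs (miRNAs), and their transcripts were measured in testis of adult marmosets (Callithrix jacchus), small South American monkeys. The 4 genes were taken by name from 12199 named protein-coding genes of a testis RNA-seq table, with names of the form LOC plus a number resolved to gene symbols. All samples were wild-type testis. RNA-seq was labelled as 2 replicates, from animals aged 41 and 51 months, and was deposited as 1 column of RPKM (reads per kilobase of transcript, scaled to the number of reads). Total small RNA came from an animal aged 41 months and was deposited as read counts per sequence. The third dataset, RNA recovered with the PIWI protein MARWI, lists no reads of miRNA length and was not used here.

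In the canonical pathway the nuclease DROSHA and its RNA-binding partner DGCR8 cut a hairpin out of the primary transcript. Exportin-5, encoded by XPO5, carries the hairpin to the cytoplasm together with RAN in its GTP-bound form, and DICER1 removes the loop. One strand of the resulting duplex is kept by an Argonaute protein (AGO1 to AGO4) and pairs with messenger RNAs through the seed, bases 2 to 8 of the miRNA. In the mouse, germ cells need Dicer1 to complete spermatogenesis, and Ago4 has been studied in meiosis. PIWI proteins, a separate branch of the Argonaute family, bind the longer piRNAs of germ cells, which are made without DICER1.

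Because products of this pathway are short RNAs, the sequences of the most abundant RNAs of miRNA length are given first. They are the commonest form of each of the 10 5′ ends (identical first 18 nt) with the most reads of 21 to 23 nt, the usual length of miRNAs, in total small RNA. The seed is in capitals, and T stands for U, as in the deposited table.
End 1: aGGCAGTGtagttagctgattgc
End 2: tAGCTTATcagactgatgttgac
End 3: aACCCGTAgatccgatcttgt
End 4: tGGCAGTGtattgttagctggt
End 5: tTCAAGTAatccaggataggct
End 6: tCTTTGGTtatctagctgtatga
End 7: tGCGTCTTacatgcgacactga
End 8: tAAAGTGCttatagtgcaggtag
End 9: cAACGGAAtcccaaaagcagctg
End 10: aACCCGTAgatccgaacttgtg
No table of annotated miRNAs was used, so the sequences are not named. They were chosen by length and read number, and whether each is a product of the pathway was not tested. Ends 1 and 4 share the seed GGCAGTG, and ends 3 and 10 share the seed ACCCGTA.

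The first question was at what level the testis expressed these 4 genes. Summed over their transcript entries, all 4 had similar, moderately high values, between 8.96 and 12.9 RPKM, a 1.44-fold range. XPO5 had 12.9 RPKM, DGCR8 10.7 RPKM, DICER1 9.91 RPKM and AGO4 8.96 RPKM. Each sum lay above the upper quartile of all named protein-coding genes, 8.42 RPKM. The median of the sums was 10.3 RPKM, compared with 2.44 RPKM over all of those genes. The highest single entry of DICER1, 5.76 RPKM, lay below that quartile, so its place above it rests on summing. Those of XPO5, DGCR8 and AGO4 lay above it. The values have no replicate error, because the replicates were deposited as 1 column, so the order of neighbouring genes in this list cannot be set against a spread between animals.

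**Figure D1:**
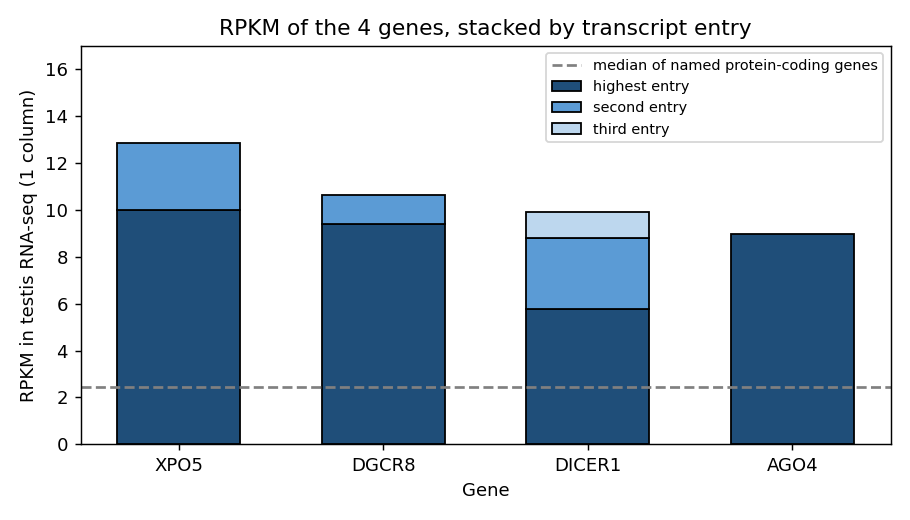
RPKM (vertical axis) of XPO5, DGCR8, DICER1 and AGO4 in testis RNA-seq, each bar stacked from the transcript entries of the gene, with a dashed line at the median of all named protein-coding genes (2.44 RPKM). The 4 bars end between 8.96 and 12.9 RPKM, all above that line, and DICER1 is built from 3 entries.

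All 4 genes were at 1 RPKM or more, the level taken here as detected, as were 63.8% of all named protein-coding genes. The share over all named protein-coding genes was 88.5% at 0.1 RPKM or more and 35.9% at 5 RPKM or more, and all 4 genes passed both limits. In rank, XPO5 was at percentile 82.5 with 2140 genes above it, and DGCR8 at percentile 79.3 with 2530 above it. DICER1 was at percentile 78.1 and AGO4 at percentile 76.2, with 2676 and 2901 genes above them. Between the levels of AGO4 and XPO5 lay 762 named genes, 6.25% of the total, including the 4 genes themselves. A level in this range is therefore common in the testis.

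Each level was built from 1 to 3 transcript entries, and for DGCR8 and DICER1 the entries covered different parts of the gene. XPO5, on the minus strand of chromosome 4 (chr4:44873545-44919614), had 2 entries of nearly the same extent. They had 9.98 RPKM and 2.88 RPKM, the higher one supplying 77.6% of the sum. For this gene the sum is thus divided between entries that start 37 bases apart.

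DGCR8, on the plus strand of chromosome 1 (chr1:184512618-184545474), was divided otherwise. Its entry of 9.39 RPKM spanned only the upstream 10420 bases and supplied 88.1% of the sum. The second entry, with 1.26 RPKM, spanned the downstream 27297 bases and overlapped the first in part. The part of DGCR8 farthest downstream was thus covered only by the lower entry. The 1.26 RPKM of that entry was below the median of all named protein-coding genes, 2.44 RPKM. Whether overlapping entries share reads in the authors' estimate is not stated.

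DICER1, on the minus strand of chromosome 10 (chr10:120709470-120780330), had 3 entries. The most upstream one had 5.76 RPKM, 58.2% of the sum, and ended inside the gene. The others, which began 22507 and 27393 bases farther downstream, had 3.02 and 1.12 RPKM, and the lower of them reached the downstream end of the gene. DICER1 was the member whose level depended most on summing: its highest entry alone was at percentile 69.8 among the highest entries of all named genes. AGO4, on the plus strand of chromosome 7 (chr7:70163485-70212843), had a single entry of 8.96 RPKM, so no choice between entries affects it. Of all named genes, 77.1% had a single entry and 3.39% had 3 or more. Coordinates are those of the deposited table, whose genome build is not given in the sources used here, and spans include introns.

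**Figure D2:**
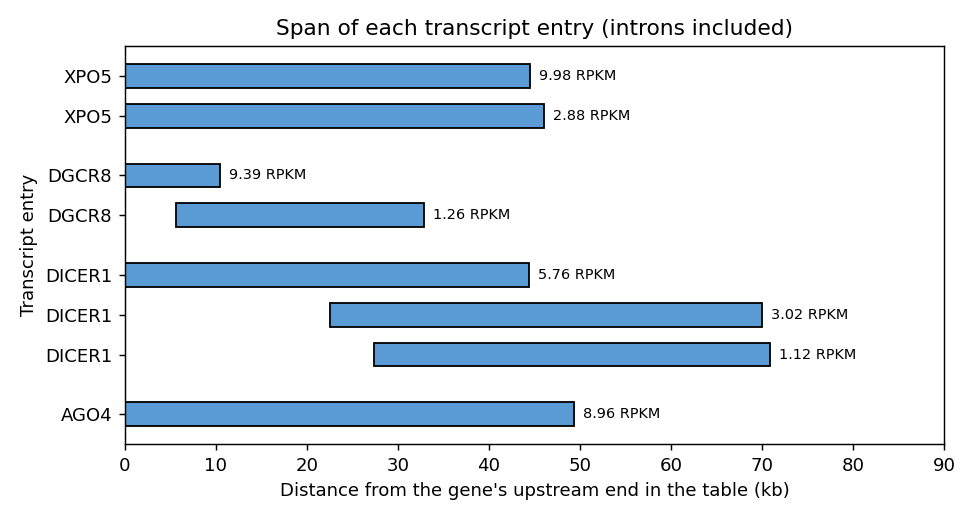
Span of each transcript entry of XPO5, DGCR8, DICER1 and AGO4, as distance in kb from the upstream end of the gene in the table, introns included, with the RPKM of each entry beside its bar. The highest entries of DGCR8 (9.39 RPKM) and DICER1 (5.76 RPKM) cover the upstream part of the gene only, and AGO4 has a single entry.

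The surroundings of the genes in the same table bear on how their reads could be assigned. TRMT2A, which encodes a tRNA methyltransferase, had an entry of 1.74 RPKM on the opposite strand whose span of introns and exons covered all 32857 bases of DGCR8. The RNA-seq libraries were directional per the labels, but whether strand was used in counting is not stated, and the part of such reads in the DGCR8 value was not tested. XPO5 began 85 bases from the start of POLH, a DNA polymerase gene transcribed in the opposite direction, whose highest entry had 6.90 RPKM and did not overlap it. No entry within 150 kb overlapped DICER1 or AGO4. RANBP1 lay 7550 bases downstream of DGCR8 on the same strand, with 23.9 RPKM.

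The next question was how the 4 genes compared with the partners they work with. Lists of 78 genes for the whole miRNA pathway were used, of which 57 had a named entry and 56 were at 1 RPKM or more, beside 63.8% of all named genes. Their median was 8.96 RPKM, which is the level of AGO4 itself. Without the 4 genes, the other 53 with an entry had a median of 7.56 RPKM, and 44 of them lay above the median of all named genes. Entries at 0 are not listed and some entries carry no name, so the lack of a named entry says nothing of whether a gene was expressed. The 4 genes stood in the middle of their own pathway, from rank 21 (XPO5) to rank 29 (AGO4) of 57.

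**Figure D3:**
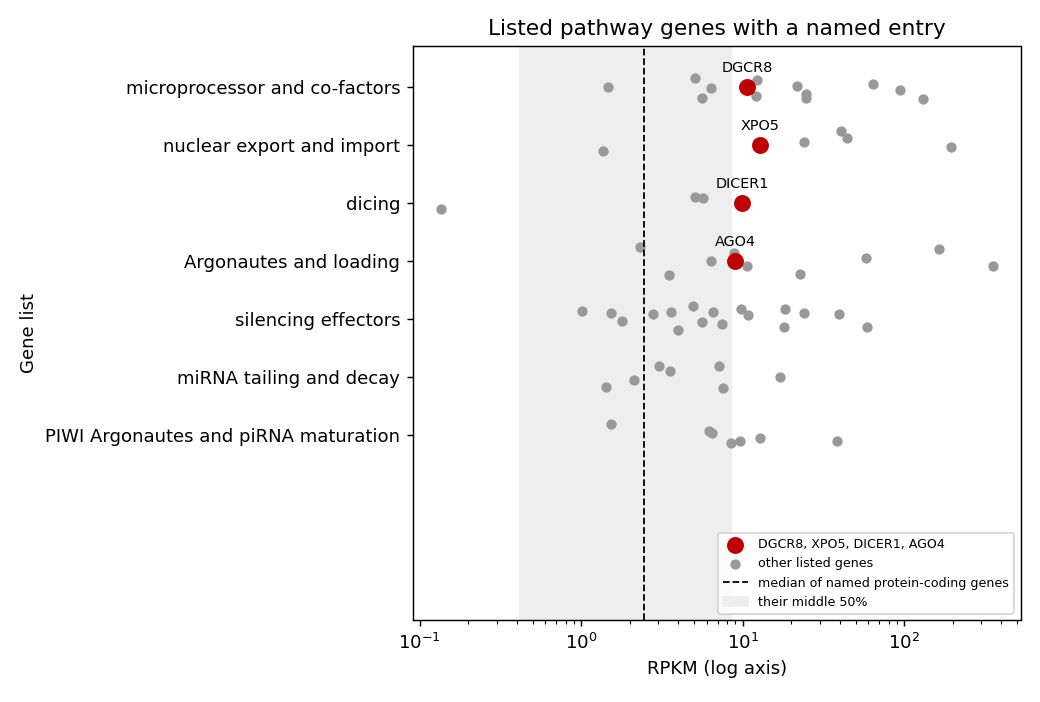
RPKM on a log axis of the listed genes with a named entry, 1 row per list, with DGCR8, XPO5, DICER1 and AGO4 in red, other genes in grey, and the median (2.44 RPKM, dashed) and middle 50% of all named protein-coding genes (0.417 to 8.42 RPKM, shaded). Summed over entries, the 4 genes lie close together near 10 RPKM. The lists around them spread from LIN28B at 0.135 RPKM to HSP90AA1 at 354 RPKM.

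In the nucleus, DGCR8 was ninth in level of the 13 microprocessor genes with an entry. DGCR8 had 10.7 RPKM, against 130 RPKM for the helicase DDX5, 94.5 RPKM for ERH, a small protein that binds DGCR8, and 64.5 RPKM for the cap-binding protein NCBP1. METTL3, which methylates adenosines of primary transcripts among other RNAs, had 24.8 RPKM and the helicase DDX17 had 24.6 RPKM. These co-factors also act on many other RNAs. KHSRP, NCBP2, SRRT and the RNA-editing enzyme ADAR were lower than DGCR8, with 6.32, 5.62, 5.08 and 1.47 RPKM. DROSHA, the nuclease that DGCR8 serves, had no named entry, so the ratio of the 2 subunits could not be given.

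For export, XPO5 had 12.9 RPKM, against 194 RPKM for RAN, the GTPase that exportins in general depend on. XPO5 was also lower than XPO1, the general exportin for proteins and several RNAs, which had 40.3 RPKM or 3.14 times the level of XPO5. RANBP2, a nuclear pore component, had 44.4 RPKM and RANBP1 23.9 RPKM, while IPO8, an importin that also binds Argonautes, had 1.36 RPKM. Thus 4 of the 5 other transport genes with an entry were above XPO5, and all 4 of these serve transport in general.

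At the dicing step the order turned, and DICER1 was the highest of the 4 genes with an entry. DICER1 had 9.91 RPKM, against 5.64 RPKM for TARBP2 and 5.03 RPKM for PRKRA, the double-stranded RNA-binding partners of DICER1. DICER1 was thus 1.76 times as high as TARBP2 and 1.97 times as high as PRKRA. With the highest entry of each gene alone, DICER1 was 1.02 times TARBP2 and 1.57 times PRKRA, so the size of the gap rests in part on summing. LIN28B, which blocks processing of let-7 precursors, had 0.135 RPKM, the only pathway gene with an entry under 1 RPKM. LIN28A and TRIM71 had no named entry.

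Among Argonautes, AGO4 had the highest value. AGO4 had 8.96 RPKM, against 3.50 RPKM for AGO2, the Argonaute known for its slicing activity, and 2.30 RPKM for AGO3. AGO4 was thus 2.56 times as high as AGO2 and 3.90 times as high as AGO3, and made up 60.7% of the sum of these genes. AGO1 had no named entry, so the order holds for AGO2, AGO3 and AGO4 alone. AGO3, whose first entry begins 77063 bases downstream of AGO4 on the same strand, had 2 entries of 1.34 and 0.954 RPKM. The Argonautes are related in sequence, and how reads matching several of them were assigned is not stated.

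Transcripts of most listed chaperones that help load Argonautes were higher than those of AGO4, by up to 39.5-fold. Against the 8.96 RPKM of AGO4, HSP90AA1 had 354 RPKM, HSPA8 165 RPKM, the co-chaperone PTGES3 58.2 RPKM and AHSA1, an activator of HSP90, 22.6 RPKM. They fold many other proteins as well. HSP90AB1 was near AGO4, at 10.7 RPKM, while FKBP5 at 8.79 RPKM and FKBP4 at 6.35 RPKM were below AGO4.

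Genes that act after Argonaute loading had lower medians than the 4 genes, with single genes above them. Of 25 listed silencing effectors, 17 had an entry and all 17 were at 1 RPKM or more, beside 63.8% of all named genes, with a median of 6.55 RPKM. The highest were CNOT1, the scaffold of the CCR4-NOT deadenylase, with 58.9 RPKM, the poly(A)-binding protein PABPC1 with 39.6 RPKM, and the decapping genes DCP1B and EDC4 with 23.9 and 18.3 RPKM. The GW182 proteins, which Argonautes recruit directly, had 5.62 RPKM (TNRC6B), 3.97 RPKM (TNRC6C) and 1.52 RPKM (TNRC6A), each below AGO4. Of 13 genes for miRNA tailing and decay, 7 had an entry, with a median of 3.52 RPKM. PNPT1, a ribonuclease of mitochondria, led them with 17.02 RPKM, followed by PARN with 7.56, XRN2 with 7.08 and TUT1 with 3.52 RPKM. TUT4, a uridyltransferase of miRNA precursors, had 3.04 RPKM.

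Levels of the PIWI branch were also set beside those of AGO4 and DICER1. AGO4 had 8.96 RPKM and DICER1 9.91 RPKM, against 9.66 RPKM for PIWIL2, which had 1 entry. The highest entry of DICER1 alone was 0.597 times PIWIL2. PIWIL4 and PIWIL3 were lower, at 1.52 and 0.378 RPKM, and PIWIL1 had no named entry. Among genes of piRNA maturation, PLD6, a mitochondrial nuclease, had 38.5 RPKM and PNLDC1, which trims piRNA 3′ ends, had 12.8 RPKM. GPAT2, MOV10L1 and ASZ1 had 8.45, 6.45 and 6.16 RPKM. The 4 miRNA genes had a median of 10.3 RPKM, against 8.45 RPKM for the 7 genes with an entry on the piRNA list, which does not include PIWIL3. The other 3 listed genes, PIWIL1, TDRKH and HENMT1, had no named entry. XPO5, DGCR8 and DICER1 are sums over entries, while of the 7 only GPAT2 had more than 1 entry. Naming and summing thus both bear on these medians, and their order says nothing firm of the 2 pathways.

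The RNA came from whole testis, so each level is a mix over cell types, and fewer cells of a type cannot be told apart from less RNA per cell. Markers of spermatids, the post-meiotic germ cells, reached the highest values. Of 7 listed genes 5 had an entry, from 48.9 RPKM (SPACA1) to 7177 RPKM (PRM1), a range that overlaps those of other cell types. Of 6 Sertoli cell markers, 4 had an entry, between 0.148 RPKM (AMH) and 68.02 RPKM (CLU), and of 5 Leydig cell markers 3 had one, between 4.91 RPKM (STAR) and 404 RPKM (INSL3). Spermatogonial markers with an entry ran from 0.290 RPKM (KIT) to 7.60 RPKM (DMRT1), and those of spermatocytes from 0.522 RPKM (SPO11) to 49.9 RPKM (SYCP1). Of the peritubular markers ACTA2 had 19.4 RPKM, and of the blood and immune markers HBB had 38.1 RPKM and CD68 0.913 RPKM. The endothelial markers listed had no named entry. Which of these cells held the transcripts of the 4 genes was not tested.

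The last question set the genes beside the RNAs of miRNA length. Total small RNA held 14138166 reads of 20 to 51 nt. Reads of 21 to 23 nt were 7.26% of them (exact 95% interval 7.25% to 7.27%), against 84.9% for reads of 26 to 32 nt, the length of piRNAs. The interval counts reads, which have no molecular identifiers, and covers counting error alone. RNAs of piRNA length were thus 11.7 times as frequent as those of miRNA length. Small RNA was selected by size on a gel, and the labels give the small RNA library 1 animal and RNA-seq 2, so the values are side by side and the relation between them cannot be tested.

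**Figure D4:**
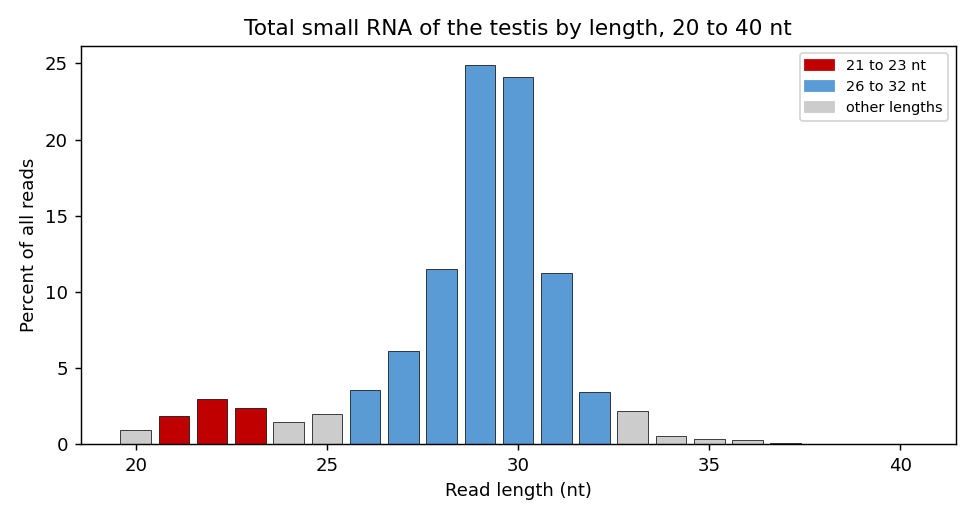
Percent of all total small RNA reads (vertical axis) at each length of 20 to 40 nt, with 21 to 23 nt in red and 26 to 32 nt in blue. The red lengths form a separate small peak at 22 nt, with 3.0001% of reads, below the main peak of 24.9% at 29 nt.

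Reads of miRNA length formed a peak of their own. Lengths of 21, 22 and 23 nt held 1.87%, 3.0001% and 2.39% of all reads, against 1.46% at 24 nt and 0.964% at 20 nt. The peak at 22 nt, the most typical length of DICER1 products in mammals, was also the length with the most reads per distinct sequence between 20 and 28 nt, at 8.15. Over all lengths 33 nt had more, at 9.41. In the table annotated by gene type, 11 RNA-seq entries were classed as miRNA loci, all unnamed, from 2.00 to 400.3 RPKM with a median of 30.3 RPKM.

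The reads of miRNA length were held by fewer sequences than those of piRNA length. The 100 most abundant sequences held 51.4% of reads of 21 to 23 nt, against 12.2% of reads of 26 to 32 nt. Sequences with 1000 or more reads numbered 128 at 21 to 23 nt and held 54.7% of those reads, against 818 sequences and 23.3% at 26 to 32 nt. These fixed limits do not allow for class size, 159114 distinct sequences at 21 to 23 nt and 2188395 at 26 to 32 nt. Reads per distinct sequence were closer, 6.45 and 5.48, as were the shares of reads in sequences read once, 12.3% and 13.4%. U was the first base of 63.2% of reads of 21 to 23 nt and of 84.0% of reads of 26 to 32 nt. Over distinct sequences these shares were close, 73.4% at 21 to 23 nt and 75.5% at 26 to 32 nt.

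The 10 ends printed above held 25.2% of reads of 21 to 23 nt. End 1 had 77925 of these reads, 7.59% of the class, followed by end 2 with 33709 and end 3 with 26075. End 10 had 14364. Their commonest forms had 22 nt in 4 cases, 23 nt in 5 and 21 nt in 1, and 6 of the 10 began with U. By seed, GGCAGTG of ends 1 and 4 headed the class with 100544 reads, 9.80%, and ACCCGTA of ends 3 and 10 came next with 45394 reads, 4.42%. The third, GAGGTAG, with 38710 reads, was spread over 41 distinct sequences, and none of its ends was among the 10.

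Cutting by DROSHA with DGCR8 and by DICER1 sets the ends of miRNAs, so the ends were compared between the length classes. In miRNA-length RNAs most reads near a kept 5′ end started exactly at it, while read length at that end varied. An end was kept only if no start within 3 nt had more reads, which raises the share starting exactly there. The share at the commonest length had a different limit, because most reads of a kept end had to fall in the length class. The size of the first share therefore cannot be set against that of the second. For 93 ends with 1000 or more reads of 21 to 23 nt, a median of 99.3% of the reads starting within 3 nt of the end started exactly at it (quartiles 97.7% and 99.9%). For 931 ends of 26 to 32 nt the median was 85.2% (quartiles 68.4% and 95.5%). Reads under 20 nt are not in the deposited counts. Shortened reads that start downstream of a 21 to 23 nt end can thus be missing, which can raise the share of that class. How much of the gap comes from this was not tested. Shares of 90% or more were found for 82 of the 93 ends of miRNA length, 88.2%, and for 373 of the 931 ends of piRNA length, 40.1%. Among ends with 5000 or more reads, a limit added after the data were seen, the medians were 98.9% and 95.3%, a smaller gap.

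Read length at a given 5′ end, and with it the 3′ end, varied in both classes. For ends of 21 to 23 nt a median of 65.2% of reads had the commonest length, and for ends of 26 to 32 nt the median was 59.03%. Most reads of a kept end had to fall in its class. The class of 21 to 23 nt spans fewer lengths, which sets a higher floor for its share, so these medians are not on equal terms. Among the 10 printed ends this share ran from 38.4% for end 9 to 90.2% for end 5, while their share at the exact 5′ start ran from 94.4% for end 6 to 99.99% for end 4. The lowest 5′ share of the 93 ends, 51.0%, belonged to aTTGAAACctctgagagtaga, with 8110 reads of 21 to 23 nt. The highest, 100%, was shared by 5 ends with 1062 to 2984 reads, among them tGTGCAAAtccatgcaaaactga, with the fewest reads of these. Ends within 1 library are not replicates, and without hairpin sequences no end could be assigned to DROSHA or to DICER1.

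**Figure D5:**
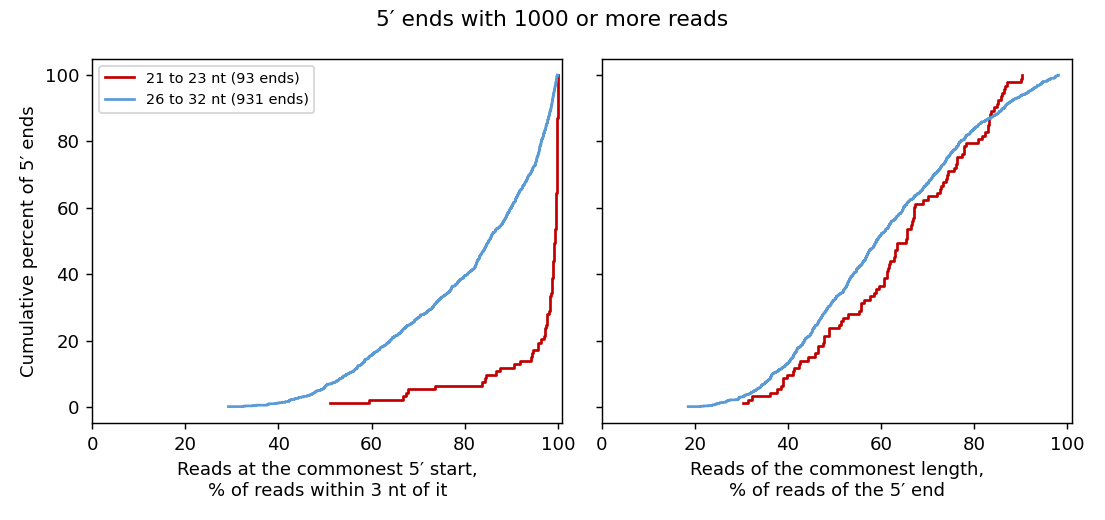
Cumulative percent of 5′ ends with 1000 or more reads (vertical axis) against the percent of reads starting exactly at the end (left) and the percent of its reads that have the commonest length (right), for 93 ends of 21 to 23 nt (red) and 931 ends of 26 to 32 nt (blue). The red curve stays low until close to 100% on the left (median 99.3%, against 85.2% in blue), and the curves lie near each other on the right (medians 65.2% and 59.03%).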

How the data were processed

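Per the labels' protocols, testis RNA was extracted with the miRNeasy kit, small RNA was gel-purified by size for NEBNext libraries, and RNA-seq libraries were directional. Bowtie, TopHat and Cufflinks appear in the submitters' processing notes, with no version or role. No genome build or filter is stated. Small RNA was deposited as whole-number read counts per distinct sequence, not normalized. RNA-seq was deposited as RPKM per transcript, made by the authors, with values above 0 only and an unknown depth.

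Of the LOC names, 6593 matched a symbol of RefSeq assembly calJac240_pri, used for names alone, and 506 did not. Ensembl identifiers named 48 more entries, names ending in CALJA named 5 entries of listed genes, and 2330 entries had no name. RPKM was summed over protein-coding entries of a symbol. With 1 column per dataset no test was made. Members, lists and the rule for named genes (the 4 genes, the Argonaute, PIWI and partner genes, and of each list the 4 highest and those under 1 RPKM) were chosen with earlier results of these data known, and further listed genes were added with their values in view.

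A 5′ end was the first 18 nt of a read, kept if most of its reads fell in the length class and no start within 3 nt had more. Summing, ranking and end counts were tested on simulated data. Results on annotated miRNAs and hairpin arms were not run, because no table of those sequences was used here. Computation used matplotlib 3.10.9, numpy 2.4.6, pandas 2.3.3, Python 3.11.15 and scipy 1.17.1.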

Additional observations from a re-analysis of the deposited data

How the results depend on the processing

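All 4 genes were at 5 RPKM or more as summed. The count of pathway genes was 57 at a limit of 0.1 RPKM and 41 at 5 RPKM, against 56 at 1 RPKM, beside 88.5%, 35.9% and 63.8% of all named genes. With the highest entry alone in place of the sum, XPO5 had 9.98, DGCR8 9.39 and DICER1 5.76 RPKM, so DICER1 then lay below AGO4. Names of the table alone left DGCR8 and AGO4 without a value and XPO5 and DICER1 unchanged. Among genes at 0.1 RPKM or more, the percentiles of XPO5, DGCR8, DICER1 and AGO4 were 80.2, 76.6, 75.2 and 73.1. With every protein-coding entry ranked singly they were 83.6, 82.7, 73.6 and 81.9, and with the highest entry of every symbol, added after the data were seen, 80.7, 79.6, 69.8 and 78.8.

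The 7.26% of reads at 21 to 23 nt was 9.68% at 20 to 24 nt, 3.0001% at 22 nt alone, 5.96% over distinct sequences, 7.41% without sequences read once, 7.24% without the 10 most abundant sequences and 7.36% of reads up to 33 nt. The end shares were alternatives added after the data were seen. The median share at the 5′ start was 99.1%, 98.9% and 99.4% at 21 to 23 nt, and 77.3%, 95.3% and 85.5% at 26 to 32 nt, with ends of 100 reads, ends of 5000 reads and sequences read once left out. In the same order the median share at the commonest length was 65.3%, 66.1% and 65.3%, and 55.6%, 61.3% and 59.1%. The 5′ share was higher at 21 to 23 nt in each case, with reads under 20 nt missing throughout. Other matching rules for annotated miRNAs and read limits for hairpin arms were not run. No paired analysis was possible because each dataset was deposited as 1 column, and no replicate could be left out. Depth limits the RPKM values to an unknown degree.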
